A study of Mus musculus with 15 samples.

Results

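Hippocampal RNA of mice sampled 1 h after an extinction trial on which freezing had fallen (ELF, 5 arrays) was compared with that of control mice (5 arrays). These 10 arrays were chosen by their sample titles out of 15 in the series. The other 5 arrays held hippocampus taken 1 h after extinction trial 1 (E1). They entered the model only to estimate the spread between arrays and for a direct comparison with ELF. All mice were male C57BL/6J, an inbred laboratory strain, with no transgene, deletion or drug named in the labels, and their age is not given there. E1 and ELF mice had received a footshock in a box and were then returned to it at 24 h intervals without the shock. In this experiment ELF was trial 5. The sample names call the controls naive, whereas the design text has them placed in the box without the shock. The labels give no time between that handling and tissue collection, so the shock, the repeated extinction trials and the 1 h interval cannot be told apart here. The replicates are described as biological, with 1 array each. RNA entered only with an integrity number of 9.0 to 10.0. The 75th percentile of intensity ran from 1441 to 2932 over the 15 arrays, and the number of arrays limits the precision of every value below.

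Contextual fear extinction is new learning that a place no longer predicts a shock. It depends on the hippocampus, whose excitatory neurons switch on immediate early genes within minutes of being active. The tissue also holds glia and a dense capillary bed. The endothelial cells of these capillaries form the blood-brain barrier through tight junctions and transporters, respond to vascular endothelial growth factor (VEGF) through its receptors, and share a basement membrane with mural cells. The choroid plexus, an epithelium next to the hippocampus that makes cerebrospinal fluid, can come along in a dissection.

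The genes with lower values in ELF included some of the vessel wall, and the DNA just before the start sites of 6 of them is shown here because these genes moved together. Each stretch is the 150 bases upstream of a RefSeq start site in GRCm38.p6, 5′ to 3′ on the gene's strand, with AGGAAG or its reverse complement CTTCCT, a core recognised by ETS-family factors, in capitals.
Flt1, chr5:147726012-147726161, minus strand: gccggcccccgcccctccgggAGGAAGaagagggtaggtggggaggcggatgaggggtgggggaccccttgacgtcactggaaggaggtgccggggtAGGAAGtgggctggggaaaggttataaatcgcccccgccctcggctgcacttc
Kdr, chr5:75978456-75978605, minus strand: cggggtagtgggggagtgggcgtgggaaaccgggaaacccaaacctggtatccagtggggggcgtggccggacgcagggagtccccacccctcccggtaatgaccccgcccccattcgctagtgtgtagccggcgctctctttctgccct
Cldn5, chr16:18776697-18776846, plus strand: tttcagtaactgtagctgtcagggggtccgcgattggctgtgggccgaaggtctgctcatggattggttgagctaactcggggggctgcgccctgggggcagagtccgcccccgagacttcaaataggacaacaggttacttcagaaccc
Robo4, chr9:37401822-37401971, plus strand: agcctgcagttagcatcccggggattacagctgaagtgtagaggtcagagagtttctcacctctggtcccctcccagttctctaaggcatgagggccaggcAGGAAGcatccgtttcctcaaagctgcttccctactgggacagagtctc
Eng, chr2:32646445-32646594, plus strand: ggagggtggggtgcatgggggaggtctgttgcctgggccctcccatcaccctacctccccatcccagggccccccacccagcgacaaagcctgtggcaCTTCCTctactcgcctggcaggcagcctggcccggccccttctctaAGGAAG
Adgrl4, chr3:151437732-151437881, plus strand: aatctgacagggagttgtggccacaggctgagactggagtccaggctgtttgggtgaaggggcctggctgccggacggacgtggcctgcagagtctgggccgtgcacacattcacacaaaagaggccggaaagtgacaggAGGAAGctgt
The 6 letters stood in the 150 bases of Flt1 and Eng 2 times each, in those of Robo4 and Adgrl4 1 time each, and in those of Kdr and Cldn5 0 times. Within 250 bases upstream they were present in 12 of 19 promoters of the endothelial list and in 29.2% of all 27025 promoters in the table. They were present in 24 of 78 promoters of genes that were lower in ELF (30.8%) and in 63 of 226 of those that were higher (27.9%). GGGCGG, the GC box, was held by 51.3% of the promoters of lower genes and 29.6% of those of higher genes, against 48.3% of the 14918 promoters of genes tested. These are letter matches, not sites.

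Values below are log2 intensities relative to the 75th percentile of the array, called the level. A difference is ELF minus control on that log2 scale, given with its standard error (SE) from limma and an adjusted p (limma, Benjamini-Hochberg over 26117 genes). A gene was called higher or lower at an adjusted p under 0.05.

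In all, 562 genes passed the threshold (2.15% of 26117). Of these, 389 were higher in ELF (1.49%) and 173 lower (0.662%). The higher genes had a median difference of 1.08 and the lower ones of -0.74, against 0.10 over all genes. With the array median as the shift in place of the 75th percentile, the median over all genes was -0.0013, and 718 genes were higher and 485 lower. The authors' deposited log2 values gave 780 higher and 803 lower. The higher genes were mostly dim: 79.2% of them had a level below -2, against 43.9% of the lower ones and 48.2% of all genes. Among the 3411 genes with a level above 2, 10 were higher and 7 lower. In 231 of the 389 higher genes all 5 ELF arrays lay above all 5 control arrays, a pattern seen in 2.53% of all genes, and in 145 of the 173 lower genes all 5 lay below, a pattern seen in 2.22%. The genes were called on these same arrays. That choice favours groups that do not overlap, so these counts are no separate evidence.

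**Figure D1:**
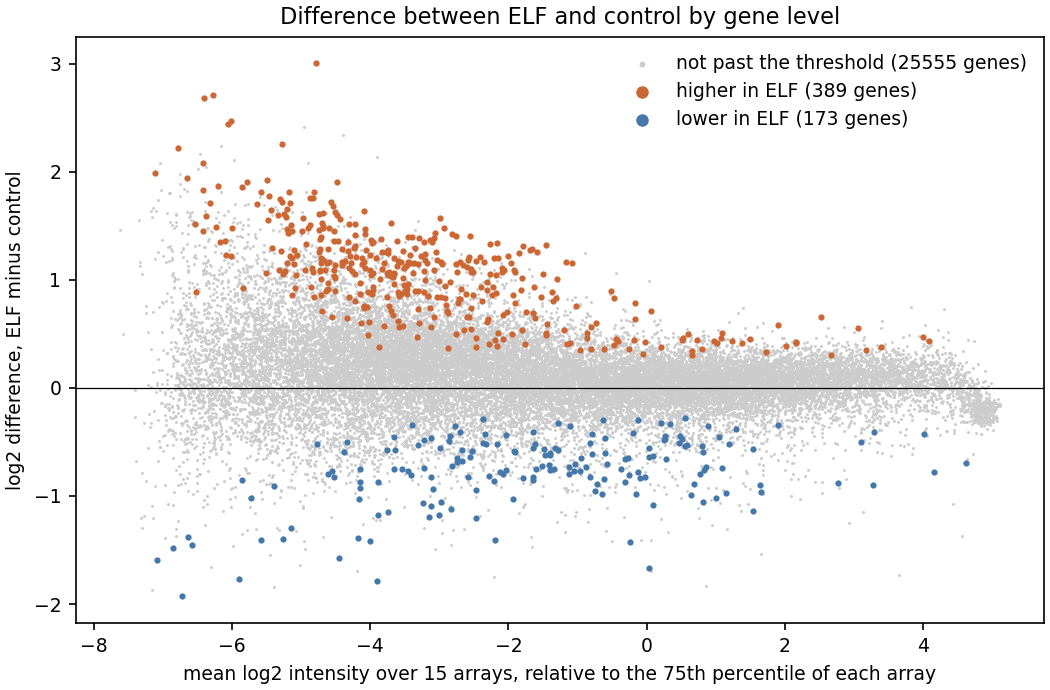
Each point is 1 of 26117 genes, placed by its mean log2 level over 15 arrays (x axis, relative to the 75th percentile of each array) and its log2 difference, ELF minus control (y axis). The 389 genes called higher in ELF (orange) lie mostly at low levels, with 308 of them below -2, while the 173 called lower (blue) spread over the range.

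The 2 groups shared no slide. Control mice 1 to 4 were on slide 1, control 5 on slide 2, ELF 3 and 4 on slide 3 and ELF 1, 2 and 5 on slide 4. E1 arrays on slides 2 and 3 are the only link between the groups. With slide as a random block (correlation within a slide 0.468) 0 genes passed in limma, with 1161 at an unadjusted p under 0.05. With only the 10 arrays in the model 0 passed, with 4580 at an unadjusted p under 0.05, against 6005 in the model of 15 arrays. The shares of slide and of group in a difference named below cannot be told apart. Leaving out 1 array gave between 0 genes (without control 2 or without control 3, with 4627 and 4237 at an unadjusted p under 0.05) and 5164 (without ELF 4). Without ELF 5, 2 or 1 the counts were 213, 206 and 137. They were 111 without control 4, 36 without control 1 and 2109 without control 5. No gene passed in all 10 of these fits, and 35 genes (25 higher, 10 lower) failed in none but those without control 2 and without control 3.

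**Figure D2:**
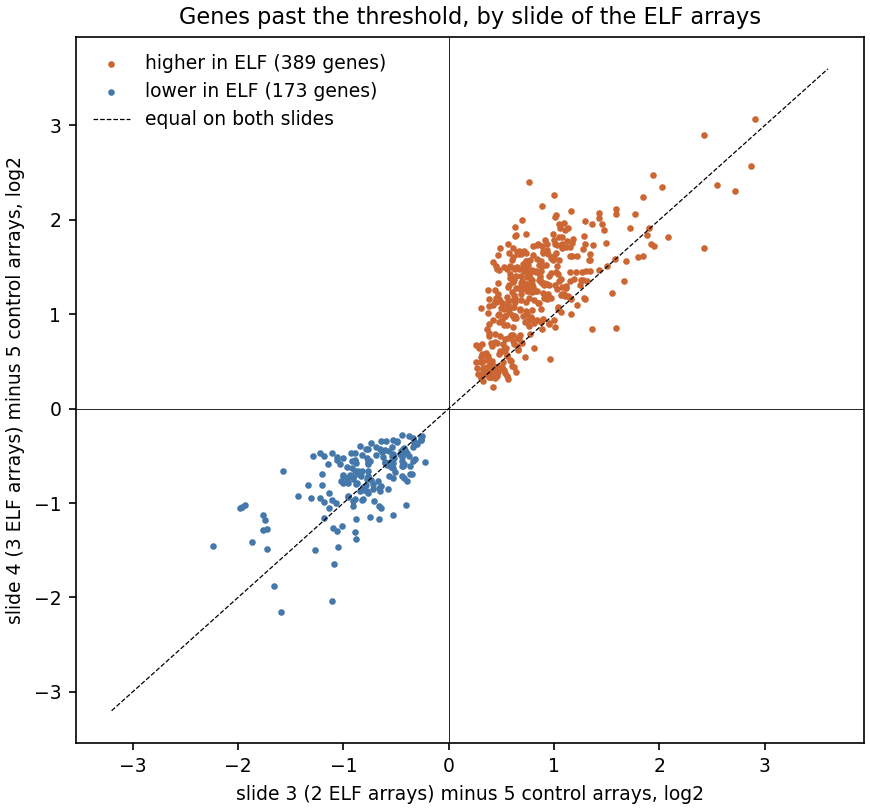
The 562 genes past the threshold, by the log2 difference of the 2 ELF arrays of slide 3 (x axis) and of the 3 ELF arrays of slide 4 (y axis) from the 5 control arrays. Lower genes (blue) had medians of -0.77 on slide 3 and -0.66 on slide 4, while higher genes (orange) had 0.74 and 1.26 and lie mostly above the dashed line of equality.

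Lower genes included members of the vessel wall. Of 33 measured endothelial genes, 13 fell and 0 rose, against 0.662% lower and 1.49% higher over all genes. Their median difference was -0.52, against 0.10 over all genes. Those that fell were the VEGF receptors Flt1 and Kdr, the surface sialomucin Emcn, the lectin-like receptor Cd93, the guidance receptor Robo4, the TGF-beta co-receptor Eng, the adhesion G protein-coupled receptor Adgrl4 (named Eltd1 on the array), the phosphatase Ptprb that restrains the angiopoietin receptor, the transcription factor Sox18, the clotting factor Vwf, nitric oxide synthase Nos3, and the surface antigens Ly6a and Ly6c1 (named Ly6c). Probes disagreed for Cd93, where the reported one gave -0.72 and the other 1.16, and for Vwf, where other probes gave -0.97 to 0.23. Of the other 20, 10 had an unadjusted p under 0.05, all of them lower. Cdh5, the cadherin of endothelial junctions, differed by -0.76 ± 0.20 (adjusted p = 0.063), and Pecam1 by -0.29 ± 0.11 (adjusted p = 0.16). All 33 were well above background on all 10 arrays.

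Flt1, a VEGF receptor that also acts as a decoy (probe at chr5:146456619-146456678, mm7), had levels of 2.89, 2.23, 2.10, 1.90 and 1.81 in control mice 1 to 5 and of 0.73, 0.95, 1.51, 1.08 and 0.96 in ELF mice 1 to 5. The groups did not overlap, and control 1 was the highest. The difference was -1.14 ± 0.22 (2.20-fold lower, adjusted p = 0.0285). Other Flt1 probes gave between -1.28 and 0.11, so the probes of this gene disagreed.

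Kdr, the main signalling receptor for VEGF (chr5:75351537-75351596, mm7), had levels of 0.47, 0.10, 0.01, -0.22 and -0.50 in control mice and of -0.92, -1.28, -0.91, -0.97 and -0.98 in ELF mice. Each ELF array was below each control array, and the ELF mean was -1.01 ± 0.15 (SD, n = 5). The difference was -0.98 ± 0.16 (1.98-fold lower, adjusted p = 0.0195). Kdr was among the 35 genes that failed in none but the fits without control 2 and control 3, as were Sox18 (-0.85 ± 0.13), Adgrl4 (-1.05 ± 0.16) and the drug efflux pump Abcb1a (-1.20 ± 0.17).

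Ptprb had the lowest difference among the called genes named here, -1.66 ± 0.35 (3.17-fold lower, adjusted p = 0.035). Its control levels were 1.55, 0.93, 0.75, 0.53 and 0.42, and its ELF levels -0.65, -2.43, -0.12, -0.41 and -0.52. The groups did not overlap, and ELF 2 was far below the other ELF mice. A second probe of Ptprb gave -0.93.

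Transporters and junction proteins of the barrier changed in part. Of 28, 4 fell and 0 rose, against 0.662% lower and 1.49% higher over all genes. The median was -0.25. Those that fell were Abcb1a, the tight-junction protein Cldn5 (-0.74 ± 0.14), the thyroid hormone and anion transporter Slco1c1 (-0.73 ± 0.17) and the taurine transporter Slc6a6 (-0.88 ± 0.21; second probe -0.39). Cldn5 had a control level of 2.13 in mouse 1 and of 1.42 to 1.68 in the other 4, and ELF levels of 0.66, 0.99, 1.04, 1.12 and 0.77, with no overlap. Slc2a1, the barrier's glucose transporter, differed by -0.24 ± 0.14 (adjusted p = 0.33). With slide as a fixed block the median of the 28 genes was -0.10, against -0.22 over all genes. Under that block the list was thus not below all genes, and 0 of the 28 passed in limma.

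Other lists of the vessel wall also held lower genes. The share lower over all genes was 0.662%. In the VEGF and angiopoietin list (median -0.15) Flt1, Kdr and the endothelial receptor Notch4 (-0.56 ± 0.11) fell, 3 of 25, and the ligand Vegfa differed by -0.24 ± 0.12 (adjusted p = 0.25). Of 20 basement membrane genes (median -0.25) 3 fell, the collagen chains Col4a1 (-0.51 ± 0.10) and Col4a2 (-0.63 ± 0.10) and the laminin chain Lama5 (-0.73 ± 0.17). A second probe of Col4a1 gave -0.07 and one of Col4a2 -0.52. Of 19 mural cell genes (median -0.15) 2 fell, the pericyte gene Rgs5 (-0.65 ± 0.15) and Mcam (-0.33 ± 0.07; second probe -0.03). With slide as a fixed block the medians were -0.25, -0.44 and -0.32, in the order given, against -0.22 over all genes. The angiopoietin receptor Tek differed by 0.01 ± 0.29, with -0.83 on slide 3 and 0.57 on slide 4.

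**Figure D3:**
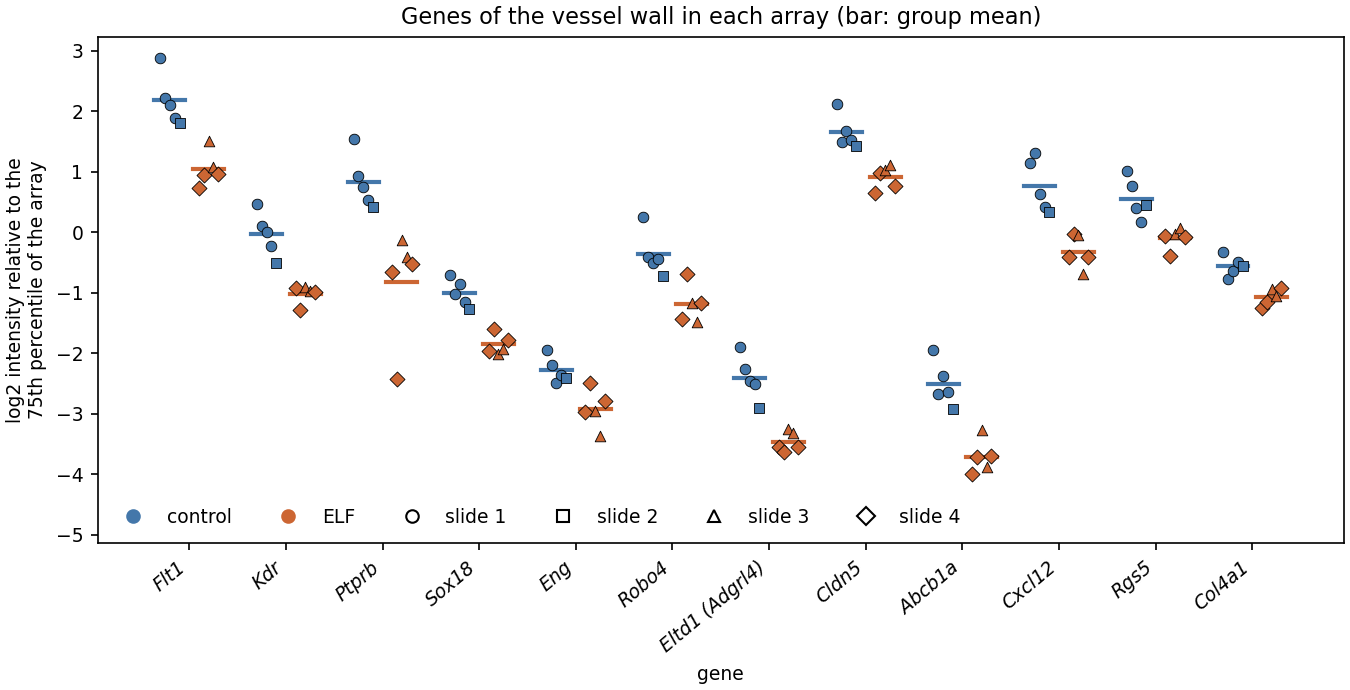
Log2 level (y axis, relative to the 75th percentile of the array) of 12 vessel-wall genes (x axis) in 5 control arrays (blue) and 5 ELF arrays (orange), with the shape giving the slide and the bar the group mean. Robo4 is the only gene of the 12 whose groups overlap, and control 1 is the highest or the second highest control array in each.

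The median over the 33 genes, relative to the control mean, was 0.36 in control 1 and between -0.19 and -0.06 in the other 4 controls. In ELF it was -0.69, -0.24, -0.61, -0.73 and -0.52, each below each control array. Without control 1 the median difference was -0.44, with 3 genes lower. The number lower was 0 without control 2 or without control 3, 4 without control 4, 3 without ELF 1 or without ELF 5 and 6 without ELF 3. The median was -0.70 with the 2 ELF arrays of slide 3 and -0.51 with the 3 of slide 4. It was -0.43 with slide as a fixed block, against -0.22 over all genes under that block. There 0 of the 33 passed in limma, with 6 lower and 1 higher at an unadjusted p under 0.05. That block shrank most of the single genes: Flt1 to -0.13, Cldn5 to -0.12, Kdr to -0.25, Abcb1a to -0.47, Sox18 to -0.55 and Ptprb to -0.57.

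Markers of neighbouring tissues did not all move with the endothelial genes. The summed linear intensity of the 33 endothelial genes, relative to the 75th percentile, was 29.6 to 45.6 in control and 25.2 to 33.7 in ELF mice. For 19 mural genes the sums were 23.3 to 26.8 and 22.1 to 29.4. For 30 genes of meninges and fibroblasts they were 31.2 to 53.2 and 27.0 to 52.4, with 0 called and 6 at an unadjusted p under 0.05. For 18 genes of blood cells they were 25.9 to 66.0 and 28.5 to 60.7, with 0 called and 0 at an unadjusted p under 0.05. Fewer vessel cells and less RNA per vessel cell cannot be told apart in bulk tissue, and the part of dissection in the result was not tested.

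Choroid plexus genes were lower in ELF, chiefly in 1 mouse. Of 30 measured, 29 had a negative difference and the median was -1.09, but 1 passed the threshold, the ion channel Trpm3 (-0.53 ± 0.10, adjusted p = 0.0267). The list's median relative to the control mean was -3.12 in ELF 3 and between -0.61 and -0.32 in the other 4 ELF mice. It was between -0.30 and 0.27 in controls, so the groups did not overlap but lay close together apart from ELF 3. Ttr, the transthyretin that this epithelium secretes, had levels of 3.79, 3.64, -1.81, 4.01 and 3.35 in ELF mice and of 4.00 to 4.70 in controls. Its difference of -1.74 ± 0.85 did not pass (adjusted p = 0.236). The summed intensity of the 30 genes was 93.6 to 127 in controls and 14.97 to 84.5 in ELF, and none of them was below background on all arrays of either group. Without ELF 3 the median was -0.56, with 2 genes lower. Ependymal genes, which serve motile cilia, gave 1 lower of 23, Rsph4a (named Rshl3, -0.43 ± 0.10). The share lower over all genes was 0.662%.

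**Figure D4:**
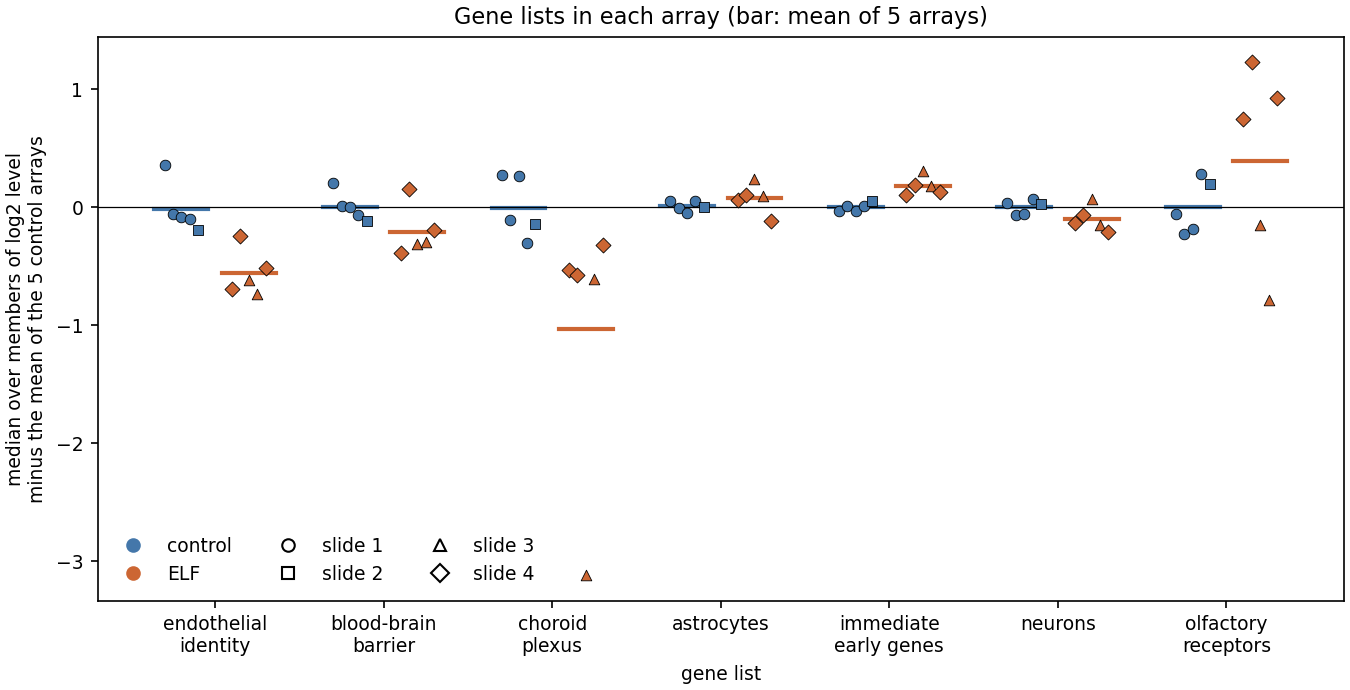
Median over the members of 7 gene lists (x axis) of the log2 level minus the mean of the 5 control arrays (y axis), for each control (blue) and ELF (orange) array, with the shape giving the slide and the bar the mean of 5 arrays. Endothelial genes are lower in all 5 ELF arrays, choroid plexus genes are far lower in ELF 3 alone (-3.12), and olfactory receptors are high on slide 4 (0.75 to 1.23) and low on slide 3 (-0.79 and -0.15).

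Of 27 genes of the insulin-like growth factor system, which carries growth signals to neurons and progenitors, 3 fell and 1 rose. Over all genes 0.662% were lower and 1.49% higher. Among ligands, Igf2 had levels of 4.04, 3.49, 4.05, 3.48 and 3.32 in control and 2.89, 3.40, 2.13, 2.81 and 2.68 in ELF mice. ELF 2 lay within the control range and ELF 3, the mouse with low choroid plexus genes, was the lowest. The part of choroid plexus tissue in this value was not tested. The difference was -0.89 ± 0.21 (adjusted p = 0.048), and a second probe gave -0.88. Igf1 differed by 0.26 ± 0.19 (adjusted p = 0.405), while its other probes gave -0.23 to -0.05.

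The secreted binding protein Igfbp7, abundant in endothelium, fell by 0.97 on the log2 scale (SE 0.18, adjusted p = 0.0259). Its levels were 2.20, 1.51, 1.67, 1.49 and 1.21 in control and 0.60, 1.16, 0.32, 0.51 and 0.65 in ELF mice, with no overlap. Igfbp2 differed by -0.81 ± 0.22 (adjusted p = 0.065), again with ELF 3 lowest at 0.96. A probe of the receptor gene Igf1r, listed under its clone name A330103N21Rik, fell (-0.51 ± 0.11). Stc1, an inhibitor of the proteases that free these ligands, rose (0.85 ± 0.20; second probe 0.27). None of the 4 calls held without control 1, without ELF 1, or without control 2 or 3.

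Several of the lowest differences lay outside these lists. The 12 lowest among called genes with a RefSeq match that were well above background in both groups included the chemokine Cxcl12, which vessels and meninges make (-1.09 ± 0.22), the heme-sensing repressor Bach1 (-1.20 ± 0.25), the fatty acid elongase Elovl7 (-1.06 ± 0.21; second probe -1.03), the imprinted cell-cycle inhibitor Cdkn1c (-0.99 ± 0.24) and the imprinted microRNA host transcript Mirg (-1.02 ± 0.22). Cxcl12 had levels of 1.15, 1.31, 0.63, 0.42 and 0.33 in control and -0.41, -0.03, -0.04, -0.68 and -0.41 in ELF mice. Another Cxcl12 probe gave 0.00. The rest of the 12 were Gprin3 (named C030038J10Rik, -1.41 ± 0.30), Sh3rf2 (-1.39 ± 0.30) and Fam222b (named 9630020I17Rik, -1.18 ± 0.28), beside Ptprb, Abcb1a, Flt1 and Adgrl4. In Gprin3, Bach1 and Fam222b, ELF 2 was the lowest array, at -4.36, -4.25 and -5.73.

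Phospholipid transfer protein Pltp had the smallest p of any lower gene. Its levels were -0.57, -0.89, -0.66, -0.89 and -0.89 in control and -1.37, -1.55, -1.88, -1.56 and -1.52 in ELF mice (-0.80 ± 0.11, adjusted p = 0.0174). The groups were well apart, with -0.94 on slide 3 and -0.70 on slide 4. Eomes, a factor of intermediate neuronal progenitors, fell by 0.59 (SE 0.12, adjusted p = 0.0323). Its control levels of -3.99 to -3.83 lay above the ELF levels of -4.71 to -4.24. The Wnt inhibitor Sfrp1 also fell (-0.81 ± 0.18, second probe -0.42), the 1 call among 50 Wnt genes (2%, against 2.15% of all genes).

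Among the 6 called genes of the highest level, 4 were lower and 2 higher. The RNA-binding protein Celf3 (named Tnrc4) differed by -0.78 ± 0.19, the axonal motor Kif1b by -0.43 ± 0.10 and the ubiquitin ligase Mycbp2 (named Phr1) by -0.40 ± 0.10, each with no overlap between groups. Other probes gave -0.83 to -0.18 for Kif1b and -0.43 to -0.08 for Mycbp2. The pseudogene transcript Pisd-ps3 (named 4933439C20Rik) differed by -0.69 ± 0.15. It was saturated on 3 control arrays and 2 E1 arrays, so that this difference is not an exact size, and a second probe gave -0.39. Its probe may also bind near-identical copies.

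The rises at high level were small. Gstm5, a glutathione transferase, had levels of 3.74, 3.84, 3.71, 3.82 and 3.86 in control and 4.20, 4.45, 4.27, 4.34 and 4.06 in ELF mice (0.47 ± 0.09, 1.38-fold, adjusted p = 0.028). Ddit4, a stress-induced inhibitor of mTOR signalling, had 3.54 to 3.91 in control and 4.06 to 4.43 in ELF mice (0.43 ± 0.09, adjusted p = 0.0402). Neither pair of groups overlapped. With the array median as the shift neither passed (adjusted p = 0.118 for Gstm5 and 0.145 for Ddit4).

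Of 26 astrocyte genes 3 rose, all by small amounts, against 1.49% higher over all genes. They were the chemokine Cxcl14 (0.30 ± 0.07), the claudin Cldn10 (0.33 ± 0.08) and the acyl-CoA synthetase Acsbg1 (0.35 ± 0.09), each without overlap. S100b missed the threshold narrowly (0.33 ± 0.08, adjusted p = 0.0502), and the filament protein Gfap differed by 0.03 ± 0.13. Of the 26 differences 16 were positive and 10 negative. At an unadjusted p under 0.05 in limma 7 of the genes were higher and 3 lower. The list's median of 0.09 was close to that of all genes, 0.10, and with the array median as the shift it was -0.01 with 0 genes called, while the authors' deposited log2 values gave 0 higher and 2 lower. In 7 of the 10 fits that left out 1 array, none of the 26 passed.

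Of 53 immediate early and activity-regulated genes, 2 rose and 1 fell, and 44 had a positive difference (median 0.17, against 0.10 over all genes). Over all genes 1.49% were higher and 0.662% lower. With the array median as the shift the list's median was 0.07. Gadd45g, a stress and DNA demethylation factor, rose by 0.55 ± 0.11 (adjusted p = 0.0297). Its levels were 2.77, 2.79, 2.62, 2.59 and 2.83 in control and 3.11, 3.63, 3.25, 3.29 and 3.08 in ELF mice. All 5 ELF arrays were above all 5 controls, with 0.55 on slide 3 and on slide 4 alike. Dusp1, a phosphatase that ends MAP kinase signals, rose by 0.45 ± 0.11 (adjusted p = 0.049), from 0.02 to 0.19 in control to 0.34 to 0.79 in ELF mice. Klf4, which endothelial cells also express, fell (-0.89 ± 0.20).

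The classic neuronal members missed the threshold. Fos, a subunit of AP-1, had levels of -2.65, -2.27, -1.88, -2.42 and -1.91 in control and -1.66, -2.33, -0.88, -1.24 and -1.68 in ELF mice (0.67 ± 0.25, adjusted p = 0.139). ELF 2 lay within the control range and the slide 3 mice were highest. Arc, which regulates synaptic AMPA receptors, differed by 0.40 ± 0.16 (adjusted p = 0.156), with ELF 2 at 2.64 below all controls and the other 4 ELF mice at 3.18 to 3.61 above all of them. Egr1 (0.23 ± 0.16), Npas4 (-0.13 ± 0.24) and Bdnf (0.04 ± 0.09) gave adjusted p of 0.384, 0.775 and 0.817. Atf3 had 0.54 ± 0.13 (adjusted p = 0.0504) and Ier2 0.44 ± 0.12 (adjusted p = 0.0621). With the array median as the shift neither Gadd45g nor Dusp1 passed. Neither did they without control 1, 2, 3 or 4. With slide as a fixed block the median of the 53 genes was 0.22, against -0.22 over all genes. Under that block 0 of them passed in limma, with 14 higher and 3 lower at an unadjusted p under 0.05. Fos, Arc, Egr1 and Bdnf then differed by 1.09, 0.88, 0.77 and 0.05, with adjusted p of 0.192, 0.140, 0.110 and 0.927.

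Glucocorticoid-induced genes, which report stress hormone action, included 2 that rose of 30, Ddit4 and Dusp1, with 26 positive differences and a median of 0.19, against 1.49% higher and a median of 0.10 over all genes. The next were Cebpd (0.46 ± 0.13, adjusted p = 0.065) and Tsc22d3 (0.42 ± 0.12, adjusted p = 0.0738). The receptor gene Nr3c1 differed by 0.07 ± 0.09 and the receptor's co-chaperone Fkbp5 by 0.13 ± 0.13. With the array median as the shift 0 of the 30 passed and the median was 0.08, and with quantile normalization 5 rose.

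No gene passed in 27 of the 48 lists, which together counted 798 members, with 157 at an unadjusted p under 0.05 in limma, against 23.0% of all genes. Among 28 pan-neuronal genes 0 were called and 7 had an unadjusted p under 0.05. Syt1, the vesicle calcium sensor, differed by -0.30 ± 0.11 and Snap25, a fusion protein, by -0.30 ± 0.16. The lists of dentate gyrus (18 genes, 3 at an unadjusted p under 0.05), field CA1 (15, 3), interneurons (28, 3), glutamate receptors (24, 8), GABA receptors (19, 4), postsynaptic scaffold (23, 1), vesicle release (35, 7), plasticity kinases (42, 7) and chromatin enzymes (42, 11) held 0 calls each. So did oligodendrocyte genes (28, 2), and Mbp was saturated on all 10 arrays.

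Of 30 microglial genes 0 passed, while 13 had an unadjusted p under 0.05, all higher. Over the whole list 25 differences were positive and 5 negative. Among all 26117 genes 4098 were higher at that unadjusted p in limma. Trem2, a lipid receptor of microglia, had levels of 0.90 to 1.13 in control and 1.19 to 1.86 in ELF mice, without overlap (0.46 ± 0.12, adjusted p = 0.0527). Cd53 did not overlap either (0.37 ± 0.09, adjusted p = 0.0559). Cx3cr1 went the other way (-0.28 ± 0.18, adjusted p = 0.365), while a second probe gave 0.87. The list's median was 0.21 with the reported scaling, against 0.10 over all genes. With slide as a fixed block it was -0.12, against -0.22 over all genes.

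The largest rises among called genes with a RefSeq match and well above background in both groups belonged to dim genes. The 12 highest, chosen by the same filter as the 12 lowest, were Sun5 (named Spag4l, 1.81 ± 0.27), Slc17a4 (named 9130214H05Rik, 1.76 ± 0.37), Ppp1r14d (1.75 ± 0.25), Slc5a9, Hoxb8, Trim50, Adh6a, Olfr285 (named Olfr257), Olfr1336, Gykl1, Cypt12 and Prrxl1 (1.58 ± 0.38). A second probe gave 0.04 for Adh6a, against 1.64, and 0.37 for Hoxb8, against 1.72. All had control means of -3.70 or below. Sun5, a nuclear envelope protein of sperm, had levels of -6.11, -6.09, -6.10, -5.68 and -5.09 in control and -4.39, -3.63, -4.27, -3.51 and -4.20 in ELF mice. Prrxl1, a factor of sensory neurons, had -4.45, -4.03, -3.89, -3.09 and -3.05 in control and -1.66, -1.10, -2.59, -2.61 and -2.67 in ELF mice. In the latter the slide 4 mice ELF 1 and 2 stood apart from the rest.

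Olfactory receptors, sensory receptors of the nose taken here as genes that should be dim in brain, moved the same way. Of 844 measured, 32 were called higher (3.79%, against 1.49% of all genes) and 0 lower, with 757 positive differences and a median of 0.38. Their median was -0.49 on the 2 ELF arrays of slide 3 and 0.97 on the 3 of slide 4. With slide as a fixed block it was -0.92, against -0.22 over all genes, and 2 were then lower. Of 69 keratin genes, which should also be dim in brain, 1 was higher (1.45%, near the 1.49% of all genes). Their median was also 0.38. Between 95.8% and 97.2% of the spots were well above background on the ELF arrays of slide 4. The share was 83.5% and 88.6% on those of slide 3 and 90.4% to 92.2% on control arrays. The part of this difference in background in the rises of dim genes was not tested.

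The genes with the smallest p included rises seen on both slides. The blood coagulation factor gene F9 had levels of -2.54, -3.25, -3.01, -2.70 and -2.63 in control and -1.49, -1.11, -2.15, -1.19 and -1.55 in ELF mice (1.33 ± 0.19, adjusted p = 0.0174). Guca2b, a guanylate cyclase activator of the gut, differed by 1.52 ± 0.19, Olfr456 by 1.48 ± 0.20, the serine protease Tmprss3 by 1.39 ± 0.19 and Mamld1 (named G630014P10Rik) by 1.32 ± 0.18, all with an adjusted p of 0.0174. On slide 3 and slide 4 the differences were 1.15 and 1.44 for F9, 1.34 and 1.63 for Guca2b and 1.25 and 1.36 for Mamld1. They were 1.33 and 1.58 for Olfr456 and 1.02 and 1.64 for Tmprss3. A choice by small p favours genes with little spread among the ELF arrays, so likeness between the slides is no separate evidence. The neuropeptide Trh also rose (1.09 ± 0.21, adjusted p = 0.0285), from -5.63 to -5.06 in control to -4.57 to -3.91 in ELF mice. It was the 1 call among 39 neuropeptide genes (2.56%, against 2.15% of all genes). The cytokine Il15 rose (0.81 ± 0.17), with 0.38 on slide 3 and 1.09 on slide 4, while a second probe gave 0.02.

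Between ELF and control, genes well above background in 1 group alone were all in ELF. In 34 genes at least 4 ELF arrays and 0 control arrays were well above background, and no gene showed the reverse. With 0 control arrays, these genes met the filter of 5 arrays only through arrays of ELF and E1. Their control values are readings not well above background, and the adjusted p-values below rest on them. The part of the unlike shares of spots well above background by slide, given above, was not tested. The largest bounds among those with a RefSeq match were Mageb5 (at least 2.72-fold higher), Capza3 (at least 2.34-fold), Csf3 (at least 2.21-fold), Hdnr (named 5033428I22Rik, at least 2.07-fold), Adam24 (at least 1.80-fold) and Defb6 (at least 1.64-fold). Capza3, Hdnr and Defb6 passed the threshold (adjusted p = 0.039, 0.0318 and 0.0418). Mageb5, Adam24 and Csf3 did not (adjusted p = 0.064, 0.0682 and 0.279). In Csf3, ELF 3 (-3.13) was far above the rest and ELF 4 (-7.85) below all controls, and the difference was 0.62 without ELF 3 and 1.80 without ELF 4, when it passed the threshold. E1 arrays showed these genes too: 3 of 5 were well above background for Mageb5, Capza3, Hdnr and Defb6, 2 for Csf3 and 1 for Adam24. E1 differed from control by 1.64 for Capza3, 1.34 for Hdnr and 1.83 for Defb6, the last with an adjusted p of 0.0418. Each bound sets the ELF mean against the dimmest probe still well above background on each control array, or the gene's own signal where that was higher.

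When slide entered as a fixed block, 83 of 26111 genes (0.318%) met the threshold, 22 higher and 61 lower, and 0 of them were among the 562. The block could not be fitted for 6 genes, whose missing spots left no link between the slides of the groups. Under this block the higher genes had the same sign in 210 of 387 and the lower genes in 165 of 173. The median over all genes was -0.22 under it, a shift that favours a negative sign. Ppp1r14d, a phosphatase inhibitor, had control levels of -5.79, -6.19, -5.96 and -5.84, with the outlier spot of control 5 left out, and ELF levels of -4.31, -3.92, -4.02, -4.95 and -3.75. Without control 5 it was 1 of the 6 genes with no block value. Genes with small p under the block were Sv2c (-3.85), Noxa1 (-1.85), Rnase6 (-1.91), Olfr275 (-2.43), Ptger4 (-2.10), Cyp2c39 (-2.83), Casp8 (-1.54), Tom1l1 (2.17) and Spry4 (1.72). In Sv2c, Noxa1, Rnase6, Spry4 and Tom1l1, control 5, the 1 control array on a slide with E1, stood apart from the other 4 controls. Without the block these 9 differed by -0.55 to 0.72 and none passed.

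ELF was also set directly against E1, to ask whether the differences were particular to the later trial. Among the 562 genes 0 differed between ELF and E1 at an adjusted p under 0.05 in limma, with 305 at an unadjusted p under 0.05 in the same direction. The 562 were chosen with the same ELF arrays. That choice itself favours such differences, so the count of 305 is no separate evidence. Over all genes 2 passed (0.00766%), the chemokines Cxcl5 and Ccl3. Ccl3, which microglia make, is named because it is 1 of these; it was higher in ELF than in E1 by 0.64 (adjusted p = 0.0258). Of the 389 higher genes 19 were also higher in E1 than in control, and of the 173 lower genes 7 were also lower. Both comparisons use the same control arrays, which favours such agreement. The share of all genes that passed between E1 and control was not counted, so these counts cannot be called many or few. Cldn5, Kdr and Sox18 differed from control by -0.93, -0.86 and -1.11 in E1 and by -0.74, -0.98 and -0.85 in ELF. These 3 do not stand for the whole list. The median difference over the 33 endothelial genes was -0.27 in E1 and -0.52 in ELF. Set directly against E1, the ELF median was -0.20, with 0 of the 33 called. Pltp differed by -0.22 in E1 and -0.80 in ELF, and its ELF minus E1 difference was -0.58 (adjusted p = 0.18). Cxcl5, a neutrophil chemokine, was higher in ELF than in E1 by 1.62 (adjusted p = 0.0258). It differed from control by -0.38 ± 0.20 in ELF (adjusted p = 0.268).

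**Figure D5:**
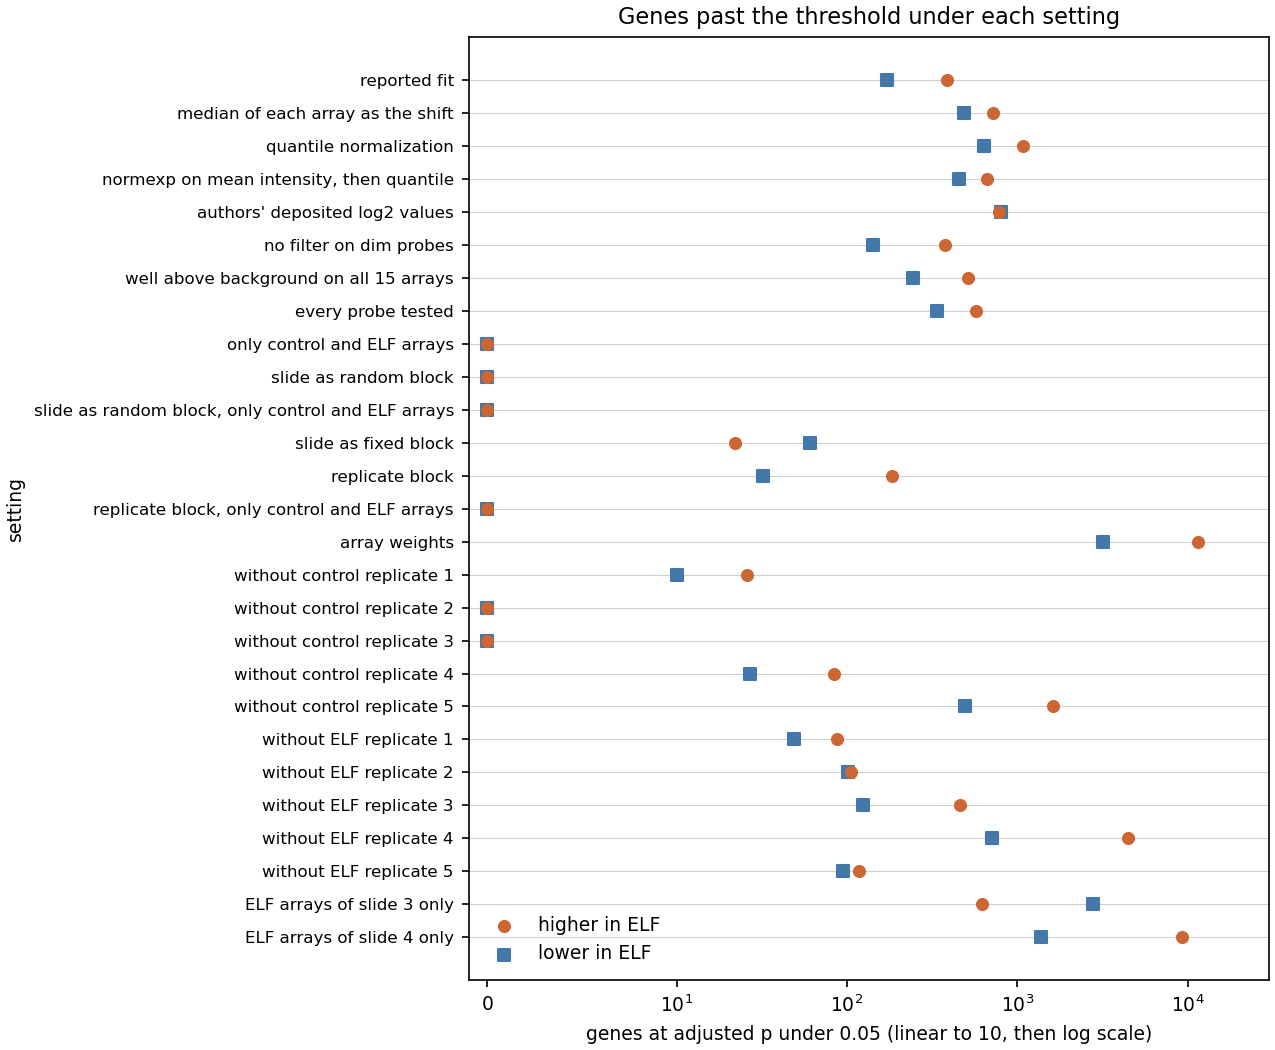
Number of genes at an adjusted p under 0.05 (x axis, linear to 10 and logarithmic beyond) that were higher (orange) or lower (blue) in ELF under each setting (y axis). The reported fit gave 389 and 173, and 6 settings gave 0. These were slide as a random block (15 or 10 arrays), the 10 arrays with and without the replicate number as a block, and the fits without control 2 and without control 3.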

How the data were processed

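Hippocampal RNA of 15 mice (5 per group) was hybridised to 1-colour Agilent mouse arrays. Per the file headers, Feature Extraction 9.5.3.1 gave background-subtracted intensities for each spot, with probe coordinates in mm7. Tools listed per the submitters' processing notes are limma and Agilent Feature Extraction. The authors' deposited log2 values (array medians 8.68 to 8.92) correlated with log2 mean intensity at r of 0.996 or more on each array, and no source used here gives their between-array normalization.

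Here, log2 processed intensity minus the 75th percentile of the array was tested with limma 3.58.1 (R 4.3.3, lmFit and eBayes, two-sided, no covariate, all 15 arrays). Control and outlier spots were left out, and 38457 of 41174 probes were kept that were well above background on at least 5 arrays. Each gene was taken at the probe with the highest mean level. A gene that the naming rule selects stays in all fits and counts and is not reported here. p-values were adjusted over 26117 genes. The fit without blocks was tested on simulated arrays drawn independently, without a slide effect. That test cannot show how the calls fare where the groups share no slide. With a fixed block, a difference was left out where missing spots made it inestimable. The members and the 48 gene lists were chosen with earlier results of these data known.

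Named genes were the 12 highest and 12 lowest differences among called genes well above background on at least 4 arrays of both groups and matched to RefSeq, the 6 smallest p, the 6 highest levels, called list members with up to 4 further members by p, 20 fixed genes, up to 10 genes called with slide as a block and up to 6 seen in 1 group. Alternatives covered scaling, background correction, the filter on dim probes, slide, replicate number, array weights and each array left out. Fits on the ELF arrays of 1 slide were added after seeing the data. Replicate numbers did not pair samples.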

Additional observations from a re-analysis of the deposited data

Results flagged for a closer look

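Within groups of 5 arrays, 24 of 310 sets of values examined had a highest or lowest array far from the other 4 (Dixon's test). Chance gives about 1 in 20 for sets chosen without regard to their values. Many of these sets were genes named from these same data, some for passing with slide as a fixed block. The count of 24 thus cannot be weighed against that rate. In ELF, mouse 2 stood apart for Fam222b (named 9630020I17Rik, -5.73), Ptprb (-2.43), Kdr (-1.28), Fkbp5 (-0.45), Guca2b (-2.999) and Slc6a6 (1.38). ELF 3 stood apart for Ttr (-1.81) and ELF 4 for Hoxb8 (-5.09). Among controls, mouse 1 was high for Cd93 (-0.47) and Nos3 (-1.71). Control 5, the 1 control array outside slide 1, stood apart for Noxa1 (-2.73), Rnase6 (-2.83), Spry4 (-3.37), Sv2c (-3.84), Tom1l1 (-1.39) and Trim50 (-3.74).

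List medians relative to the control mean also held such arrays. Control 1 was high for endothelial genes (0.36) and mural genes (0.27) and low for dentate gyrus genes (-0.13), and control 3 was low for glutamate receptors (-0.074). ELF 3 was low for choroid plexus genes (-3.12) and high for field CA1 genes (0.17) and vesicle release genes (0.15). ELF 4 was low for neurotrophins and their receptors (-0.16).

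Cxcl5 was higher in ELF than in E1 by 1.62 (limma, adjusted p = 0.0258), the 1 gene chosen by the naming rule whose difference between these groups passed.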

How the results depend on the processing

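The 562 calls between ELF and control became 1203 with the array median as the shift, 1713 with quantile normalization, 1125 with normexp and quantile, 1583 with the authors' deposited log2 values and 907 over single probes. They became 83 with slide as a fixed block, 14690 with array weights, 3415 with the ELF arrays of slide 3 and 10709 with those of slide 4. They fell to 0 with slide as a random block, with it on 10 arrays and with only 10 arrays. Leaving out 1 array gave 0 to 5164. No filter on dim probes (520) and a filter on all 15 arrays (761) stayed within 1.5 times. All 562 kept their sign under the 4 other scalings.

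Replicate numbers did not pair samples (r of same-numbered control and ELF arrays -0.43 to 0.31). With the replicate block 217 genes passed, and 0 with it on 10 arrays.

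Of the genes chosen by the naming rule, which leaves out Ccl3, 1 passed between ELF and E1, against 0 with the array median, slide as a random block or the replicate block, 5 with quantile normalization, 3 with normexp, 4 with the authors' values, 17 with slide fixed, 58 with array weights, 25 and 34 with ELF of slide 3 and slide 4, and 0 to 3 with 1 array left out.

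Signs turned for these differences, and the cause was not tested. With slide fixed they were Defb6 -0.05, Il15 -0.11, 5033428I22Rik -0.12, Adam24 -0.16, Adh6a -0.20, Fkbp5 -0.21, Gdf11 -0.27, Stc1 -0.32, Cypt12 -0.41, Gykl1 -0.45, 9130214H05Rik -0.47, Olfr1336 -0.55, Igf1 -0.56, Slc5a9 -0.58, Trim50 -0.58, Capza3 -0.73, Noxa1 -1.85, Rnase6 -1.91, Ptger4 -2.10, Olfr275 -2.43, Cxcl5 0.41 and Spry4 1.72. With slide random they were Igf1 -0.015, Noxa1 -0.17, Rnase6 -0.62, Ptger4 -0.70, Olfr275 -0.77 and Spry4 0.56, and on 10 arrays Ptger4 -0.24, Olfr275 -0.26, Rnase6 -0.33 and Spry4 0.19. With ELF of slide 3 they were Igf1 -0.24, Rnase6 -0.32, Ptger4 -0.90, Olfr275 -0.91, Npas4 0.10 and Spry4 0.49. With ELF of slide 4 they were Egr1 -0.022, Nr3c1 -0.043, Tom1l1 -0.11, Gfap -0.11, Casp8 0.0069 and Cyp2c39 0.74. With array weights they were Nr3c1 -0.099, Tom1l1 -0.16, Casp8 0.0069, Cx3cr1 0.079, Sv2c 0.080 and Cyp2c39 0.54. With the authors' values they were Tom1l1 -0.017, Ptger4 -0.021, Nr3c1 -0.022, Bdnf -0.047, Gfap -0.062 and Rnase6 -0.072. With the array median they were Olfr275 -0.0085, Tom1l1 -0.023, Nr3c1 -0.032, Rnase6 -0.036, Bdnf -0.061, Gfap -0.072 and Ptger4 -0.079. With normexp they were Ptger4 -0.034, Gfap -0.036, Olfr275 -0.082 and Rnase6 -0.11, and with quantile Olfr275 -0.079, Ptger4 -0.15 and Rnase6 -0.17.
With 1 array left out the ranges were Gfap -0.041 to 0.14, Olfr275 -0.15 to 0.41, Ptger4 -0.16 to 0.34, Rnase6 -0.054 to 0.44, Spry4 -0.24 to 0.11 and Tom1l1 -0.20 to 0.18.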
